A study of Mus musculus with 16 samples.

Results

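The 15 libraries described here were chosen by a pair of marker genes out of the 16 RNA sequencing libraries of newborn mouse pups, from their levels in raw CPM, which are counts divided by the total of the library and scaled to a common total. A library was called lung-content where Sftpc, the surfactant protein C gene of alveolar type 2 cells, had at least 1000 CPM and Alb, the albumin gene of hepatocytes, had under 1000 CPM, which held for 7 libraries. A library was called liver-content where Alb had at least 50000 CPM, which held for 8 libraries. The remaining library, labelled dead null placebo lung, had 5553 CPM of Sftpc and 9280 CPM of Alb and was left out.

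The pups came from Man1a2 heterozygous parents on a C57BL/6J background. Man1a2 encodes a Golgi mannosidase that trims N-glycans of proteins on their way to the cell surface. Both parents received N-acetyl cysteine (NAC, up to 1 g/kg), a cysteine donor for glutathione synthesis, or placebo (water) from 1 week before mating until delivery. Pups were watched for 24 h, and lung and liver RNA was taken from dead pups when found and from survivors at the end. The survivors were WT or heterozygous and the dead pups heterozygous or null. The mutant allele lacks exon 2 in all cells, and no library came from dead WT or live null pups. RNA of 3 experiments (2 for dead heterozygous pups) was pooled before sequencing, which left 1 library for each pup group, treatment and tissue label. The 7 lung-content libraries are live WT NAC, live heterozygous NAC and dead heterozygous placebo labelled lung, with live WT placebo, live heterozygous placebo, dead heterozygous NAC and dead null placebo labelled liver. The 8 liver-content libraries are live WT placebo, live heterozygous placebo, dead heterozygous NAC and dead null NAC labelled lung, with live WT NAC, live heterozygous NAC, dead heterozygous placebo and dead null NAC labelled liver. Tissue label and content were thus the same in 7 libraries and differed in 8. Lung-content therefore includes no null NAC library and liver-content no null placebo library.

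Newborn lung is lined by thin alveolar type 1 cells for gas exchange and by type 2 cells that make surfactant, under the direction of the homeodomain factor NKX2-1, while its airways carry secretory and multiciliated cells. Newborn liver consists mostly of hepatocytes, which secrete plasma proteins and run the urea cycle, glucose output and bile acid synthesis under a network of factors around HNF4A. It also still makes blood cells at birth. The 2 organs share endothelium, fibroblasts and macrophages.

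**Figure D1:**
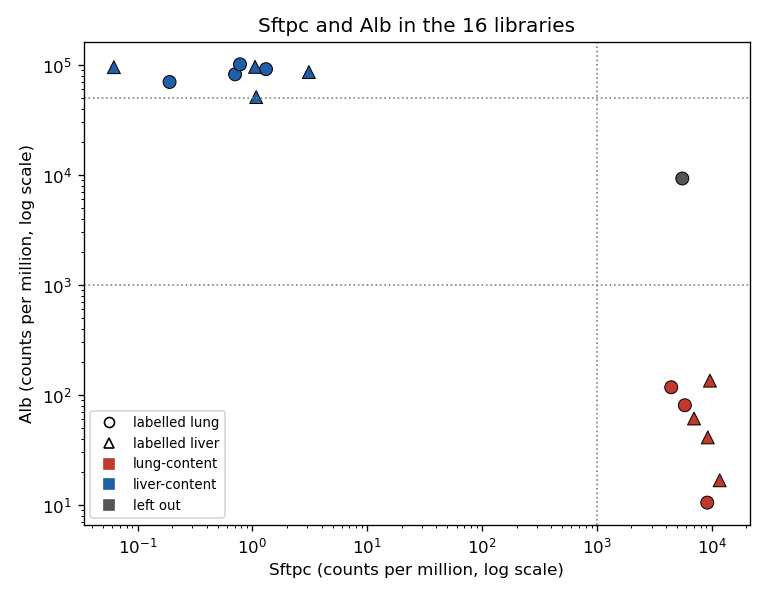
Sftpc (x axis) and Alb (y axis) in raw CPM, both on log scales, with 1 point for each of the 16 libraries and dotted lines at 1000 and 50000. Circles are libraries labelled lung and triangles libraries labelled liver, and each colour group holds both shapes. The left-out library (grey) is at 5553 and 9280.

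The values that chose the libraries are given as a description, with no test. Sftpc ranged from 4446 to 11758 CPM in lung-content libraries (median 9161) and from 0.0621 to 3.10 CPM in liver-content libraries (median 0.917). Alb ranged from 10.5 to 135 CPM in lung-content libraries (median 61.1) and from 51003 to 101254 CPM in liver-content libraries (median 88836). The library nearest to a limit was dead null NAC labelled liver, with 51003 CPM of Alb. The lung-content library with the least Sftpc was live heterozygous NAC labelled lung, with 4446 CPM. The left-out library passed the Sftpc limit and missed both Alb limits.

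Depth went with content. Lung-content libraries held from 7236865 to 11808823 counts (median 8760939) and liver-content libraries from 14115802 to 16107749 (median 14840941), so that depth and content cannot be told apart. The ribosomal RNA entry Rn45s took 4.05% to 26.2% of the counts in lung-content and 0.845% to 6.29% in liver-content libraries. Levels below are CPM after TMM scaling over the 15 libraries (scaled CPM), and 3 counts correspond to a mean of 0.278 scaled CPM in lung-content and 0.248 in liver-content libraries. Differences are lung-content minus liver-content means of log2 CPM, with the SE over the 7 and 8 libraries. Each library is a pool, so the SE measures the spread between libraries of different pup groups and treatments and not that between pups.

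Man1a2, on chromosome 3 from 100562208 to 100685503 (GRCm38, minus strand), was read in all 15 libraries. It had from 41.5 to 75.0 scaled CPM in lung-content (median 58.6) and from 29.3 to 51.4 in liver-content libraries (median 36.1), and the groups overlapped. The null library of lung-content, dead null placebo labelled liver, had 60.2 scaled CPM of Man1a2, within the range of the other lung-content libraries. The null libraries of liver-content had 33.8 and 34.4 scaled CPM of Man1a2. Counts by gene also cover the exons that are not deleted, so they do not check the null label.

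A gene was called apart where no lung-content library overlapped any liver-content library and the difference was at least 1 on the log2 scale. Among the 14175 genes whose mean CPM reached 1, 2942 were higher in lung-content (20.8%) and 2993 higher in liver-content libraries (21.1%), and 8240 were not apart. These shares are printed as the background of all counts below, and nothing is read from them, since Sftpc and Alb of the same contrast chose the libraries. At least 10-fold differences were found for 840 genes higher in lung-content and 841 higher in liver-content libraries. Within the 6 pairs of libraries that share pup group and treatment, 4407 genes were higher in the lung-content member of all 6 pairs, 4817 lower in all 6, and 4947 mixed. With the 7 libraries whose label matched their content alone, 3172 genes were apart towards lung and 3383 towards liver, and with the 8 others alone 3380 and 3109. Scaling by library size alone moved the median difference of all genes from −0.053 to 0.587 and gave 4561 genes higher in lung-content and 1664 higher in liver-content libraries, so that 73.3% rather than 49.6% of these genes were higher in lung-content libraries.

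**Figure D2:**
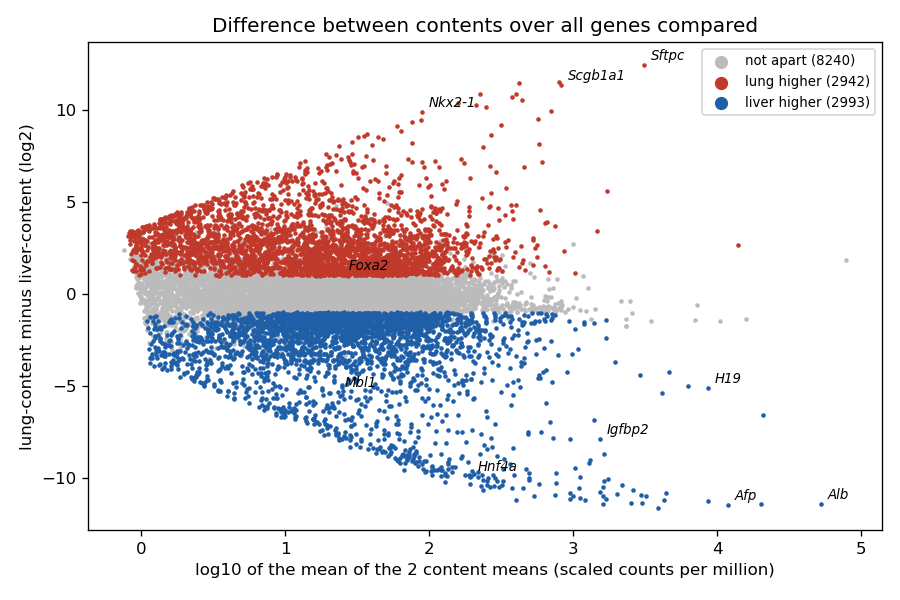
Difference between lung-content and liver-content means (y axis, log2) against the log10 of the average of both means (x axis, scaled CPM), with 1 point for each of 14175 genes. Red marks the 2942 genes higher in lung-content, blue the 2993 higher in liver-content libraries and grey the 8240 not apart, with 10 genes named.

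All 10 genes of the type 2 cell list were higher in lung-content libraries, with a median difference of 9.06, against −0.053 over all genes. Sftpc (chromosome 14 from 70520949 to 70524081, minus strand) had 4495 to 7315 scaled CPM in lung-content (median 6804) and 0.0770 to 3.68 in liver-content libraries (median 1.16), a difference of 12.47 ± 0.46. Its level was lowest in the NAC libraries of live WT and live heterozygous pups, 4586 and 4495 scaled CPM, while the 5 others had 6040 to 7315. Sftpb, whose product spreads the surfactant film, had 1065 to 2637 scaled CPM (median 1394) in lung-content and at most 0.880 in liver-content libraries, 3890-fold apart in the means. Sftpa1 and Sftpd, secreted collectins of the innate defence, had 492 to 1905 and 448 to 652 scaled CPM in lung-content and at most 2.54 and 2.83 in liver-content libraries. Lamp3, a lamellar body membrane protein, had 167 to 511 scaled CPM in lung-content and at most 3 counts in any liver-content library, at least 1270-fold higher. Abca3, the lipid transporter of the lamellar body, was read in liver-content libraries too (37.8 to 65.3 scaled CPM against 236 to 454) and differed 6.80-fold. Napsa, Lpcat1 and Etv5 were likewise read on both sides, with differences of 3.83, 2.82 and 3.38.

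9 of the 10 type 1 genes were higher in lung-content libraries, and the exception was higher in liver-content libraries. Ager, the receptor that marks type 1 cells, had 992 to 1296 scaled CPM against 2.66 to 7.52, and Aqp5, a water channel, had 142 to 265 against at most 3 counts in any liver-content library. Igfbp2, a binding protein for insulin-like growth factors listed here as a type 1 marker, had 7.90 to 21.9 scaled CPM in lung-content (median 11.2) and 1887 to 4532 in liver-content libraries (median 2939), 238-fold higher in liver-content. Akap5, a scaffold of protein kinase A, varied among the lung-content libraries, with 25.7 scaled CPM in live heterozygous NAC labelled lung and 142 to 523 in the 6 others.

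Of the airway secretory genes, 5 of 6 compared were higher in lung-content libraries. Scgb1a1, the club cell secretoglobin, had 1322 to 1894 scaled CPM (median 1635) against 0.0976 to 1.08. Scgb3a2 and Cbr2 had means of 801 and 749 scaled CPM in lung-content and under 1 in liver-content libraries. Cyp2f2, a cytochrome P450 of club cells, was not apart, with 135 to 329 scaled CPM in lung-content and 24.4 to 160 in liver-content libraries, and Bpifa1 was under the filter. All 10 multiciliated genes were higher in lung-content libraries, with a median difference of 5.17. Foxj1, the master factor of motile cilia, had 36.7 to 51.0 scaled CPM against 0.308 to 1.36, and the outer arm dyneins Dnah5 and Dnah9 had 12.3 to 20.3 and 10.2 to 14.5 against at most 0.391. Dynlrb2, a dynein light chain, had 9.11 to 12.2 scaled CPM and no count in any liver-content library, at least 45.7-fold higher.

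11 of 12 matrix genes and all 11 endothelial genes were higher in lung-content libraries, with median differences of 2.86 and 3.16. Eln, the elastin gene, had 1948 to 5524 scaled CPM against 34.6 to 150, and the lysyl oxidase gene Lox 155 to 998 against 6.42 to 38.3. Col1a1 was not apart (287 to 521 against 38.6 to 303) but was higher in lung-content libraries by library size alone, and Col3a1 differed by 2.01 ± 0.27. Epas1 and Cdh5, genes of vessels in both organs, had means of 901 and 529 scaled CPM against 180 and 62.8. Car4, the carbonic anhydrase of lung capillaries, had 20.6 to 60.9 scaled CPM against at most 3 counts in any liver-content library. In bulk RNA, fewer cells of a type and less RNA per cell cannot be told apart.

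All 14 plasma protein genes were higher in liver-content libraries, with a median difference of −11.1. Alb (chromosome 5 from 90460897 to 90476602, plus strand) had 59258 to 139500 scaled CPM in liver-content (median 105960) and 7.80 to 119 in lung-content libraries (median 52.6), a difference of −11.40 ± 0.59. Afp, the fetal counterpart of albumin, had 18976 to 32114 scaled CPM against 2.00 to 29.6, and Ahsg, the fetuin gene, 34785 to 46770 against 4.58 to 42.8. Apoa1, the main protein of high-density lipoprotein, was 1890-fold higher in the means. Trf, the iron carrier transferrin, had the smallest difference of the list, −6.58 ± 0.42, with 148 to 1084 scaled CPM in lung-content libraries. Per kilobase of exon, among genes with a single entry and an annotated exon length, which leaves out Hba-a1, liver-content libraries were led by Alb (44760 scaled CPM per kb), Ahsg (18400), Apoa1 (14050) and Trf (12330), and lung-content libraries by Sftpc (6041) and Scgb1a1 (3462). Without Rn45s, the 10 entries with most counts took 20.4% to 29.3% of the counts in liver-content and 6.45% to 10.9% in lung-content libraries. H19, the imprinted non-coding RNA of fetal tissues, had 6799 scaled CPM per kb in liver-content and 208.5 in lung-content libraries.

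Hepatocyte transcripts were read at low level in lung-content libraries, and the ranges of their ratios to one another overlapped those of liver-content libraries. Alb in lung-content libraries was 0.00744% to 0.113% of its liver-content mean. The ratio of Alb to Afp was 2.30 to 8.30 (median 4.97) in lung-content and 3.12 to 6.02 (median 4.38) in liver-content libraries, and that of Alb to Ahsg 1.42 to 3.75 (median 2.62) and 1.60 to 3.22 (median 2.67). In the other direction, Sftpc in liver-content libraries was 0.00123% to 0.0590% of its lung-content mean. Where these reads came from was not tested.

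Promoters of Alb, Afp, Sftpb, Sftpa1 and Mbl1 are shown so that the sequences of genes far up on each side can be read beside their levels. Each is a 300-base window around the start of transcription from RefSeq (GRCm38.p6), printed 5′ to 3′ on the strand of the gene. Capitals mark CTCAAG or its reverse complement, the core read by NKX2-1, which was searched on both strands and stands in 15.9% of all 32851 promoters of the RefSeq table. It was found 2 times in the window of Sftpb, 1 time in that of Sftpa1 and not in those of Alb, Afp and Mbl1. Windows of Nkx2-1, itself higher in lung-content libraries, and of Hnf4a were searched too, held no match and are not printed. The genes were chosen with their levels known, and a match is a description of the letters alone. Alb lies at chr5:90460620-90460919 (plus), Afp at chr5:90490464-90490763 (plus), Sftpb at chr6:72304360-72304659 (plus), Sftpa1 at chr14:41131538-41131837 (plus) and Mbl1 at chr14:41151206-41151505 (plus). No sequence is shown for Sftpc. Only 75.7% of the genes compared have a promoter in the table, so the shares of the motif among the genes higher on each side were not compared.
Alb: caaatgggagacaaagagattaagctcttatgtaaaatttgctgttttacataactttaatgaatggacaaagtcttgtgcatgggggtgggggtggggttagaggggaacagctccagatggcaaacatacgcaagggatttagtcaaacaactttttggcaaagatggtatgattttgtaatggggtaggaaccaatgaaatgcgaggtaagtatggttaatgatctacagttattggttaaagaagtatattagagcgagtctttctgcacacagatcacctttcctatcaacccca
Afp: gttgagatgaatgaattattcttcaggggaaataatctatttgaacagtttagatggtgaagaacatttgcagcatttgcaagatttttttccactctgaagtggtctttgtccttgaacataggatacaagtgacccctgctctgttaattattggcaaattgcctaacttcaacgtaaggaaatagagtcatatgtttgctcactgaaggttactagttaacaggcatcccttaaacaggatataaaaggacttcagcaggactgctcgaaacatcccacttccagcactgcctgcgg
Sftpb: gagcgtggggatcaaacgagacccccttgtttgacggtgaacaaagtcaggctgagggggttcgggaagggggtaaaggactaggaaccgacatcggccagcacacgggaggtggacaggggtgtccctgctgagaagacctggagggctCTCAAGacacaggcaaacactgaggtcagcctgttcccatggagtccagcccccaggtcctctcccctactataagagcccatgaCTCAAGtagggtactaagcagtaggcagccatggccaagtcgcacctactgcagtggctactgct
Sftpa1: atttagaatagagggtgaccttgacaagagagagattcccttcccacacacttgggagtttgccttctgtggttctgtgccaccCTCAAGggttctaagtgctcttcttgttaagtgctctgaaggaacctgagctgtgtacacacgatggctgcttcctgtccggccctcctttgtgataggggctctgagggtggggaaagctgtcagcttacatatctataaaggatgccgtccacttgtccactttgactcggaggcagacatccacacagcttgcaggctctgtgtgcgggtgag
Mbl1: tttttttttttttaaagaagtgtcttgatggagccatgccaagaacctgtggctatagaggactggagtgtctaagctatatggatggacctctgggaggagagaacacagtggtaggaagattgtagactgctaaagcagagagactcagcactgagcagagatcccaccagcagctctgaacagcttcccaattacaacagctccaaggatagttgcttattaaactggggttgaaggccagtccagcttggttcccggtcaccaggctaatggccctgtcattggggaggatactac

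Several of the genes named lie in shared loci, of which 4 are described here. Alb, Afp and Afm are neighbours on chromosome 5 (90460897 to 90553543, GRCm38), and Afm, a vitamin E carrier, had a mean of 128 scaled CPM in liver-content and at most 5 counts in any lung-content library. Fgg, Fga and Fgb, the fibrinogen chains, are the 3 protein-coding genes between 83007724 and 83049863 on chromosome 3, and they differed by −10.94, −11.63 and −11.19. Apoa1, Apoc3, Apoa4 and Apoa5 on chromosome 9 (46228580 to 46271919) differed by −11.25, −9.05, −8.37 and −10.44. The collectin locus on chromosome 14 (41131782 to 41185149) was split. Its outer genes Sftpa1 and Sftpd had means of 1134 and 533 scaled CPM in lung-content and 1.39 and 1.36 in liver-content libraries. Mbl1, the mannose-binding lectin gene between them, had 23.7 to 73.4 scaled CPM in liver-content and 0.260 to 1.56 in lung-content libraries, a difference of −5.30 ± 0.33. These loci were chosen with their levels known.

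The transcription factors of each organ were apart with few exceptions. Nkx2-1 (chromosome 12 from 56531958 to 56536908, minus strand) had 163 to 191 scaled CPM in the 7 lung-content libraries (median 173), with the smallest ratio of highest to lowest level among the 9 lung factors, and at most 3 counts in any liver-content library, at least 713-fold higher. Tbx4 and Tbx5, mesenchymal factors of the lung bud, had means of 128 and 58.3 scaled CPM against 0.121 and 0.0196. Foxf1 and Tbx2 had means of 210 and 297 scaled CPM against 8.11 and 10.2. Sox9, a factor of distal lung tips and of bile ducts, was not apart, with 3.56 to 13.3 scaled CPM in lung-content and 2.74 to 7.95 in liver-content libraries. In all, 8 of 9 lung factors were higher in lung-content libraries.

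10 of 12 hepatocyte factors were higher in liver-content libraries. Hnf4a (chromosome 2 from 163506808 to 163572910, plus strand) had 277 to 609 scaled CPM in liver-content (median 371) and 0 to 0.838 in lung-content libraries (median 0.171), a difference of −9.87 ± 0.39. Onecut1 had 5.58 to 13.8 scaled CPM in liver-content and no count in any lung-content library, a difference of at least 28.3-fold. Ppara, the fatty acid sensor, differed by −4.59 ± 0.23 and was read in every lung-content library (3.90 to 9.78 scaled CPM). Cebpa, a factor shared by hepatocytes and type 2 cells, was not apart (87.3 to 164 scaled CPM in lung-content against 118 to 261). Foxa2, a pioneer factor of both endodermal organs, had 20.0 to 50.8 scaled CPM in lung-content and 6.83 to 24.0 in liver-content libraries and was not apart, with a difference of 1.02 ± 0.32. By library size alone it was called higher in lung-content libraries.

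**Figure D3:**
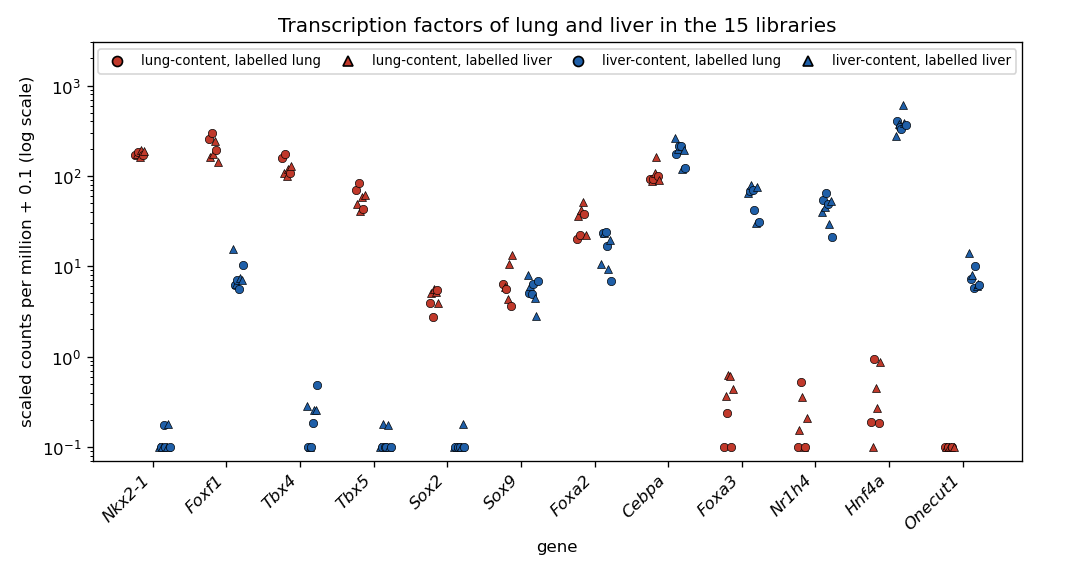
Scaled CPM plus 0.1 (y axis, log scale) of 12 transcription factors (x axis), with 1 point per library. Red points are the 7 lung-content and blue points the 8 liver-content libraries, circles labelled lung and triangles labelled liver. Sox9, Foxa2 and Cebpa overlap between contents, and the shapes lie mixed within each colour.

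Metabolic genes of the hepatocyte were higher in liver-content libraries throughout. All 7 urea cycle genes, 8 glucose output and glycogen genes and 10 bile acid genes were higher in liver-content libraries, with median differences of −6.78, −9.38 and −8.77. Cps1, which commits ammonia to the urea cycle, had 1180 to 2533 scaled CPM against 0.0848 to 3.07, and Ass1 had the smallest difference of the cycle, −3.94 ± 0.91, with lung-content libraries from 0 to 17.3 scaled CPM. Pck1 and G6pc, enzymes of glucose output that come on around birth, had 852 to 2684 and 204 to 1275 scaled CPM in liver-content libraries. Tat, a tyrosine aminotransferase induced at birth, varied more, from 177 to 2629 scaled CPM. Cyp7a1, the rate-limiting enzyme of bile acid synthesis, had 34.8 to 82.7 scaled CPM in liver-content and no count in any lung-content library, at least 201-fold higher. All 7 compared genes of fatty acid oxidation and ketogenesis were higher in liver-content libraries with a median difference of −3.10. Acadl and Hadha, enzymes of fatty acid oxidation in mitochondria, differed by −1.97 ± 0.23 and −2.10 ± 0.23. Under library size alone, 5 of these 7 were apart.

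Enzymes that exist in a liver form and in a general form differed mainly in the liver form. Over 9 such pairs, chosen with results in view, 8 liver forms were higher in liver-content libraries, and of the general forms 1 was higher in liver-content libraries and 8 were not apart. Mat1a, the methionine adenosyltransferase of the liver, had 1123 to 2562 scaled CPM in liver-content and 4.85 to 10.3 in lung-content libraries, while its general counterpart Mat2a had 45.5 to 147.5 and 76.3 to 156. Their differences were −7.89 ± 0.23 and 0.04 ± 0.26. Slc2a2, the glucose transporter of hepatocytes, had 75.4 to 232 scaled CPM in liver-content and at most 0.606 in lung-content libraries, while the general transporter gene Slc2a1 overlapped, with 25.2 to 197 and 15.3 to 161. The general form that was higher in liver-content libraries was Hk1, with a difference of −1.64 ± 0.24.

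Blood and immune genes were higher in liver-content libraries, but those of circulating red cells overlapped. Of 11 erythroid entries compared, 6 were higher in liver-content libraries. Klf1 and Gata1, factors of red cell precursors, had 34.5 to 138 and 35.2 to 85.7 scaled CPM against at most 1.11 and 2.49 in lung-content libraries. The globin entries Hba-a1, Hbb-bt and Hbb-bs and the heme synthesis gene Alas2, all carried by later red cells, were not apart. The first Hba-a1 entry had 4317 to 23234 scaled CPM in liver-content and 2657 to 7045 in lung-content libraries, and near-identical globin copies can share reads. All 9 neutrophil granule genes were higher in liver-content libraries, with differences of −7.52 and −7.12 for Mpo and Elane, made in precursors, and of −4.04 and −4.13 for S100a8 and S100a9, kept in mature cells. All 5 Kupffer cell genes were higher in liver-content libraries, with Clec4f at 51.8 to 117 scaled CPM against at most 0.559. The macrophage genes of either organ differed less, with a median of −2.15 and 6 of 7 apart, and Cd68 was not apart. By library size alone 2 of these 7 were apart. Rag1 and Rag2, the recombinases of lymphocyte precursors, were the only 2 of 7 thymocyte genes past the filter, and both were higher in liver-content libraries (means of 16.8 and 2.30 scaled CPM against 0.974 and 0.0856).

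All 10 cell cycle genes were higher in liver-content libraries, with a median difference of −3.56. Mki67 had 270 to 1494 scaled CPM against 38.4 to 99.6, and the highest lung-content value was that of live heterozygous NAC labelled lung. Some genes in common use as references also differed between contents. 5 of 12 were higher in liver-content libraries and 7 were not apart, with a median difference of −0.741 that became −0.090 by library size alone and 0.102 by library size without Rn45s. Actb (1181 to 1683 against 781 to 1362 scaled CPM) and Tbp (medians of 13.3 and 15.3) overlapped, while Gapdh (342 to 1014 against 2459 to 3214) and B2m (139 to 247 against 627 to 729) did not.

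**Figure D4:**
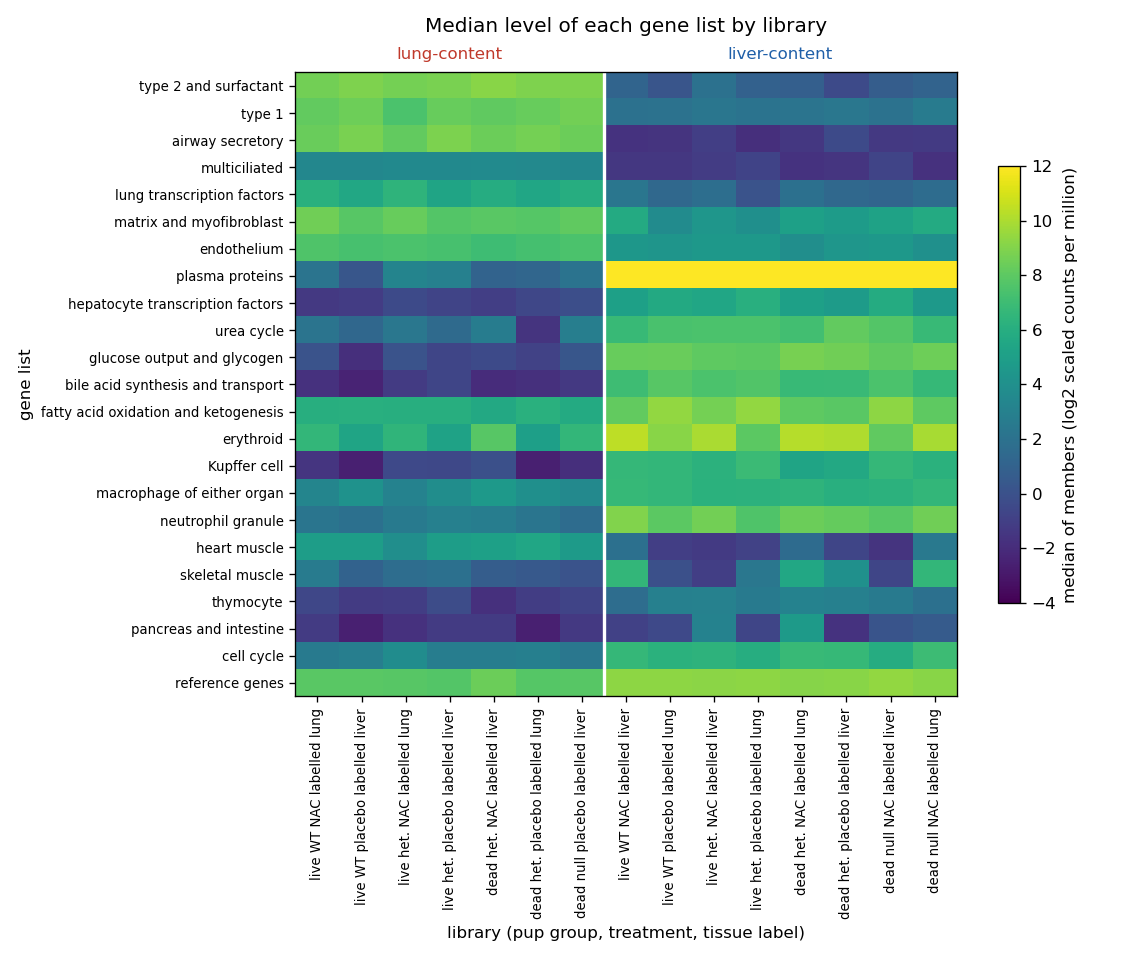
Median log2 scaled CPM of the members of each gene list (rows) in each of the 15 libraries (columns), with a white line between the 7 lung-content and the 8 liver-content libraries and colour from −4 to 12. Lists of lung cells are high on the left and lists of hepatocytes, blood precursors and the cell cycle on the right, while skeletal muscle varies among the liver-content libraries.

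Genes listed as markers of heart, skeletal muscle, pancreas and intestine were high in some libraries. Of 9 heart muscle genes compared, 5 were higher in lung-content libraries, and the summed level of the list was 166 to 478 scaled CPM in lung-content and 3.84 to 115 in liver-content libraries. Myh6, the atrial myosin, had 47.9 to 203 scaled CPM in all 7 lung-content libraries and at most 0.390 in liver-content ones. Myh7, Actc1, Myl2 and Actn2 of the same list were not apart, and Nppa was under the filter. None of 7 skeletal muscle genes was apart, and their summed level was 22.6 to 65.2 scaled CPM in lung-content and 8.84 to 1051 in liver-content libraries. Acta1, the skeletal actin, had 362, 349 and 165 scaled CPM in the liver-content libraries live WT NAC labelled liver, dead null NAC labelled lung and dead heterozygous NAC labelled lung, and 3.68 to 65.03 in the 5 others. Of 5 pancreas and intestine genes compared, only Fabp2, a fatty acid carrier listed here for the intestine, was apart (4.39 to 77.5 scaled CPM in liver-content against at most 0.444). Of the other intestine genes, Vil1 was not apart (0.917 to 2.81 against 0.222 to 1.26) and Cdx2 was under the filter. The pancreatic protease gene Ctrb1 had 237 scaled CPM in dead heterozygous NAC labelled lung and 29.1 in live heterozygous NAC labelled liver, and at most 2.15 in the other liver-content libraries. The source of these transcripts and the part of such tissue in the differences above were not tested.

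Sex-linked genes were not apart, but 2 libraries differed from the rest. Xist, the RNA of the inactive X chromosome, had 4 counts (0.339 scaled CPM) in the lung-content library dead heterozygous placebo labelled lung and 5 counts (0.391) in the liver-content library dead null NAC labelled liver. It had 139 to 578 scaled CPM in the other 6 lung-content and 222 to 551 in the other 7 liver-content libraries. The liver-content library of the same pup group and treatment as the first, dead heterozygous placebo labelled liver, had 315 scaled CPM of Xist, and the other dead null NAC library, labelled lung, had 298. All 15 libraries had reads of the Y-linked genes. Without those 2 libraries 2973 genes were apart towards lung and 3007 towards liver, of which 2909 and 2937 were among the genes called in all 15.

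The left-out library, given here only by its raw CPM, carried transcripts of both organs. It had 153 CPM of Nkx2-1 and 78.7 of Hnf4a. Over the lung lists the median ratio of its raw CPM to the lung-content mean was between 0.544 (airway secretory) and 0.815 (type 2). Over the plasma proteins its median ratio to the liver-content mean was 0.169 and over the urea cycle 0.504.

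Content accounted for 85.5% of the variance of log2 CPM over all genes and libraries, as a description. Added to content, the tissue label took 0.769%, survival 1.02%, treatment 2.06% and pup group 2.58%. Pearson correlations across genes were 0.927 to 0.984 within lung-content, 0.912 to 0.988 within liver-content and 0.462 to 0.605 between contents, and pairs of the same content with different labels reached 0.918 to 0.988. Genes are not independent replicates. The most similar library of each of the 15 had the same content.

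Labels that the rule did not use were tested with edgeR's quasi-likelihood test over the 15 libraries and 14175 genes. The first test asked what the tissue label adds once content, survival and treatment are known. No gene passed a Benjamini-Hochberg adjusted p of 0.05 (0% called), 150 had an unadjusted p under 0.05, and DESeq2 also called 0, with 197 under 0.05. The smallest edgeR adjusted p was 0.999, for genes such as Slit2, a guidance ligand of lung mesenchyme, and Kdr, the main receptor for vascular growth factor, whose label coefficients were −0.59 and −0.59 on the log2 scale. Fbxo8, F8 and Bcl6b, the other genes with the smallest p, had coefficients of 0.46, −0.91 and −0.40. Within WT and heterozygous pups the label is fixed by content, treatment and survival together, so its effect and theirs cannot be fully told apart.

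The second test asked whether the difference between contents differed between dead and live pups. It held no term for genotype, and all null libraries were of dead pups and all WT libraries of live pups. Dead pups were also harvested when found and survivors at the end. Survival, genotype and time of harvest can thus not be fully told apart in it. By edgeR 0 genes passed (0% called), 546 had an unadjusted p under 0.05, and DESeq2 called 5, which were Rab30, Wnt4, Myo16, Setdb2 and Tmprss2 (Setdb2 is named after its value was seen). The smallest edgeR adjusted p was 0.315, for Rab30, a small GTPase of the Golgi, with a coefficient of −4.25. Rab30 had 53.0 to 371 scaled CPM in the 4 liver-content libraries of dead pups, 8.23 to 33.1 in the 4 of live pups and 0.678 to 1.82 in lung-content libraries. Myo16, an unconventional myosin, Wnt4, a secreted signalling ligand, and Tmprss2, a membrane serine protease, followed with coefficients of −4.55, −2.26 and −1.95 at adjusted p of 0.315, 0.34 and 0.967. Wnt4 had 41.5 to 129 scaled CPM in the liver-content libraries of dead pups, 13.5 to 22.9 in those of live pups and at most 6.61 in lung-content libraries. For both Rab30 and Wnt4, the liver-content libraries of dead pups lay above those of live pups without overlap. Both were chosen by p in these same libraries, so this adds no support, and the share of all genes without such overlap was not counted. Spry4, an inhibitor of growth factor signalling, had a coefficient of 1.497.

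The third test asked whether the difference between contents differed between NAC and placebo. It held no term for genotype, and null pups entered only with placebo in lung-content and only with NAC in liver-content libraries. Null genotype and this interaction can thus not be fully told apart. By edgeR 0 genes passed (0% called), although 1909 had an unadjusted p under 0.05, while DESeq2 called 211. The smallest edgeR adjusted p was 0.0875 and was shared by the first 5 genes. Among them was Gclc (chromosome 9 from 77754535 to 77794485, plus strand), the catalytic subunit of the enzyme that limits glutathione synthesis, with a coefficient of 2.76. Gclc had 196, 348 and 873 scaled CPM in the lung-content NAC libraries of live WT, live heterozygous and dead heterozygous pups. The lung-content placebo libraries of the same groups had 72.7, 51.3 and 73.8, and that of dead null pups 154. In liver-content libraries it had 95.2 to 144 scaled CPM with NAC and 123 to 133 with placebo, so the NAC and placebo libraries overlapped there and not in lung-content. The first 5 genes were chosen by p in these same libraries, so a lack of overlap adds no support. How many of all genes lack such overlap was not counted. Rhobtb1 and Tmed5 had 26.8 to 29.4 and 65.5 to 72.7 scaled CPM in lung-content NAC libraries against 10.2 to 17.3 and 34.1 to 49.2 with placebo. Their coefficients were 1.62 and 1.41. Egflam, a matrix protein, and Slc7a4, a transporter-like membrane protein, were lower with NAC in lung-content libraries (38.6 to 47.6 against 59.8 to 73.1, and 1.40 to 1.80 against 3.73 to 4.85) and had coefficients of −1.53 and −2.19. Without the lung-content library dead null placebo labelled liver 88 genes passed, and without dead heterozygous NAC labelled liver 15 passed. No member of the gene lists passed any of the 3 tests by edgeR.

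**Figure D5:**
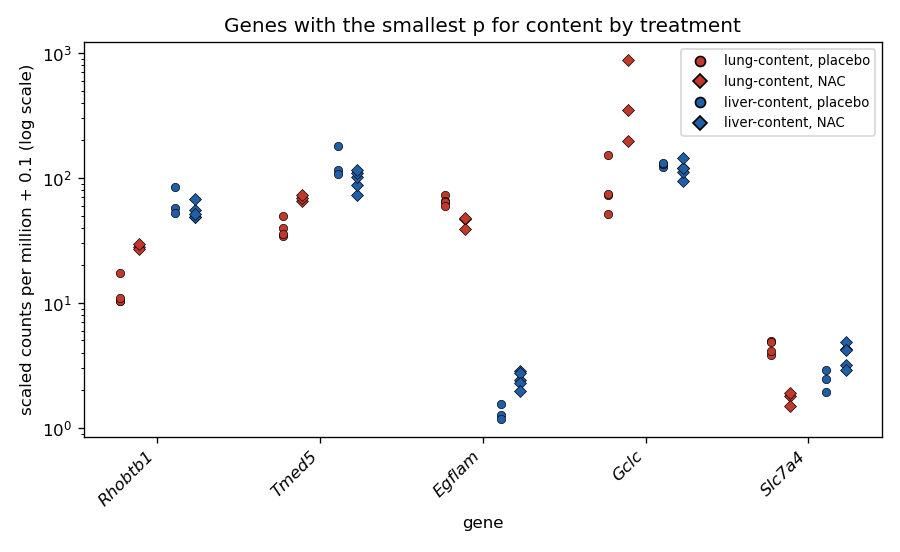
Scaled CPM plus 0.1 (y axis, log scale) of the 5 genes with the smallest p for content by treatment (x axis), with 1 point per library. Red points are lung-content and blue points liver-content libraries, circles placebo and diamonds NAC. The NAC and placebo libraries of lung-content do not overlap for any of the 5 genes, which were chosen by their p in these same libraries. None of the 5 genes passed the adjusted threshold by edgeR.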

How the data were processed

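Total RNA of newborn lung and liver was pooled within each pup group, treatment and tissue label and sequenced with a stranded mRNA kit. The authors trimmed the reads, aligned them to GRCm38 (mm10) with the Omicsoft Sequence Aligner on Array Studio, kept uniquely mapped reads and deposited estimated counts per gene symbol, of which 6.28% to 7.98% of the values in a library are not whole. Their processing notes name R 4.0.3 and edgeR 3.30.3. Use of strand in the counting is not given in the sources used here.

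The counts were rounded to whole numbers. Of 25054 entries, 5613 were at 0 in every library, and 329 symbols stand on 962 entries, which were kept apart. Libraries held 7236865 to 16107749 counts. Content was set from raw CPM of Sftpc and Alb. Scaled CPM and log2 CPM (prior count 2) came from edgeR 4.0.16 with TMM scaling in R 4.3.3, over genes whose mean CPM reached 1. The contrast between contents was described without a test, since the rule used it. The tissue label within content, content by survival and content by treatment were tested with edgeR's quasi-likelihood test over the 15 libraries and Benjamini-Hochberg adjustment at 0.05. P-values measure only the spread between these pooled libraries. Scripts were tested on simulated data. Alternatives were DESeq2 1.42.0, other scalings, filters, prior count and covariates, subsets of libraries and leaving out each library.

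The libraries and gene lists were chosen with earlier results of these data known. Genes were named by a rule: the marker genes and Man1a2, the 10 largest differences each way, up to 4 members of each list with the highest mean, members not apart in the direction of their list, the 5 smallest p of each test and the sex-linked genes. Some other list members, the enzyme pairs and the loci were added after their values were seen. Promoters came from the RefSeq table of GRCm38.p6. Some items are not reported here.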

Additional observations from a re-analysis of the deposited data

Results flagged for a closer look

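Each of 92 sets of values held a named gene or list in the 7 or 8 libraries of a content. In these sets 6 values lay farther from the others than Dixon's critical value allows. That limit is set so that chance passes it in about 1 in 20 sets, so a few of the 92 would pass by chance. Among lung-content libraries, live heterozygous NAC labelled lung had the lowest median of the type 1 list, 7.464 on the log2 scale of scaled CPM against 8.105 to 8.578 in the others. The same library had the highest median of the cell cycle list, 3.759 against 2.332 to 2.907. Dead heterozygous placebo labelled lung had a median of the urea cycle list of −1.568 against 1.374 to 2.819. The middle member there was Nags at 0.170 scaled CPM, under the mean level of 3 counts (0.278). Ass1 had 0 in this library, and Cps1 had its lowest lung-content level, 0.0848. Asl and Slc25a15, at 9.75 and 11.1 scaled CPM, were not at their lowest, so the median does not describe the whole list. Dead heterozygous NAC labelled liver had a median of the reference genes of 8.435 against 7.695 to 7.896.

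Among liver-content libraries, Sec14l3, a lipid-binding protein of airway cells, had 0.4002 scaled CPM in live heterozygous NAC labelled liver and 0 to 0.0783 in the others. Lyz1, a lysozyme of type 2 cells, had 0 in live heterozygous placebo labelled lung and 0.2481 to 0.5486 in the others. All these Sec14l3 and Lyz1 levels are within a few counts.

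The library that met neither rule, labelled dead null placebo lung, held 5553 raw CPM of Sftpc and 9280 of Alb, and no comparison used it.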

How the results depend on the processing

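No gene changed the side on which it was higher between the TMM description and any alternative among the genes called in both. Library size alone gave 4561 genes higher in lung-content and 1664 higher in liver-content libraries, library size without Rn45s gave 5449 and 1491, and a mean of at least 10 CPM gave 1914 higher in lung-content libraries, with fewer genes compared. Library size without Rn45s also turned the median difference of the reference genes to 0.102. Leaving out each library gave 2913 to 3103 genes higher in lung-content and 2970 to 3203 higher in liver-content libraries.

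For content by survival, DESeq2 called 5 genes, and 1 gene (Setdb2) was called without the 2 libraries low in Xist, a choice made after seeing the data. Leaving out each library gave 0 to 1 calls, the 1 being Setdb2 without liver-content dead null NAC labelled liver. For content by treatment, DESeq2 called 211 genes, and leaving out each library gave 0 to 88 calls, with 88 without lung-content dead null placebo labelled liver and 15 without lung-content dead heterozygous NAC labelled liver. For the tissue label the range was 0 to 1, the 1 being Cyp2b9 without liver-content dead heterozygous placebo labelled liver. The cause was not tested. Setdb2 and Cyp2b9 are named after their values were seen.

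The labels carry no replicate numbers, so no fit with a replicate block was made. By the 6 pairs of libraries that share pup group and treatment, 3335 genes were apart towards lung and 3399 towards liver. Pooling leaves no estimate of variation between pups, depth differs with content, and levels near 3 counts cannot be ranked.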
